A study of Mus musculus with 6 samples.

Results

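S100 proteins and annexins are 2 families of calcium-binding proteins, and their genes were followed here in sorted cells of the mouse mammary carcinoma line Mvt1. The members are S100a1, S100a4, S100a6, S100a10 and S100a11 among the S100 genes and Anxa1, Anxa2, Anxa3, Anxa5 and Anxa8 among the annexins. They were taken by symbol, as the read annotations equal to one of these names, and they make 10 of the 14768 gene annotations in the files. Mvt1 cells (strain FVB/N) were stained for CD24, a protein anchored to the cell surface, and sorted into a CD24- group, which showed none of it on the surface, and a CD24+ group. Both groups were grown adherent in DMEM with fetal bovine serum and antibiotics, and neither carries a treatment. RNA was prepared from 3 plates of each group, so that the data are 6 libraries of mRNA-seq, 3 CD24- and 3 CD24+, of 1 cell line. No source describes separate sorts for the plates, and the p-values therefore take in only how plates of a sorted group vary.

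S100 proteins are small proteins with a pair of EF hands, the loops that hold calcium. Most of them work as dimers which, once calcium is bound, open a surface that grips other proteins. Annexins bind to acidic phospholipids of membranes when calcium is present, and they take part in membrane repair, vesicle traffic and the control of inflammation. The families meet in complexes: S100A10 joins annexin A2 in a heterotetramer at the plasma membrane, S100A11 binds annexin A1, and S100A6 binds annexin A11. S100A4 binds non-muscle myosin and is known from motile and metastatic tumor cells, and annexin A8 is known from stratified epithelia.

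The libraries held between 6491887 gene reads, in CD24+ replicate 1, and 19101048, in CD24+ replicate 3. Values below are counts per 1000000 gene reads (CPM), scaled with edgeR's TMM method. Cd24a, the gene of the sorted marker, was at 77.1 ± 7.30 CPM in the CD24+ libraries against 10.2 ± 2.79 in the CD24- libraries (mean ± SD, n = 3 each). CD24- replicates 1 and 2 were more alike than any other pair within a group (chi-square over degrees of freedom 1.75, against 9.69 to 15.9), and CD24- replicate 3 stood apart from both. The labels call the cells mammary epithelial cancer cells. The luminal keratins Krt8, Krt18 and Krt19 were present in every library, while the epithelial adhesion genes Epcam and Cdh1 had 6 and 2 reads over the 6 libraries.

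All 10 members had reads in every library and passed the filter on low counts. At an adjusted p below 0.05 (edgeR's quasi-likelihood test, Benjamini-Hochberg over 11126 genes), 2 of the 10 rose in CD24+ cells (S100a4 and Anxa3), 2 fell (Anxa8 and S100a11) and 6 did not pass. Over all genes tested, 46.1% passed, 23.9% as higher and 22.3% as lower. The members' share of 4 in 10 is near that background. Their median log2 fold-change was 0.12, against 0.02 over all genes tested, and the median size of the change, without its sign, was 0.27 and 0.29. The groups did not overlap for 5 of the 10, and for 57.3% of all genes tested. In CD24+ cells the 5 S100 members together held 3228 to 3874 CPM and the 5 annexins 2321 to 2583 CPM, and in CD24- cells 2945 to 3186 and 1987 to 2320 CPM. From CD24- to CD24+ cells the mean of S100a4 went from 952 to 1699 CPM and that of S100a1 from 12.9 to 16.2 CPM. The means of S100a6, S100a10 and S100a11 were lower in CD24+ cells.

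**Figure D1:**
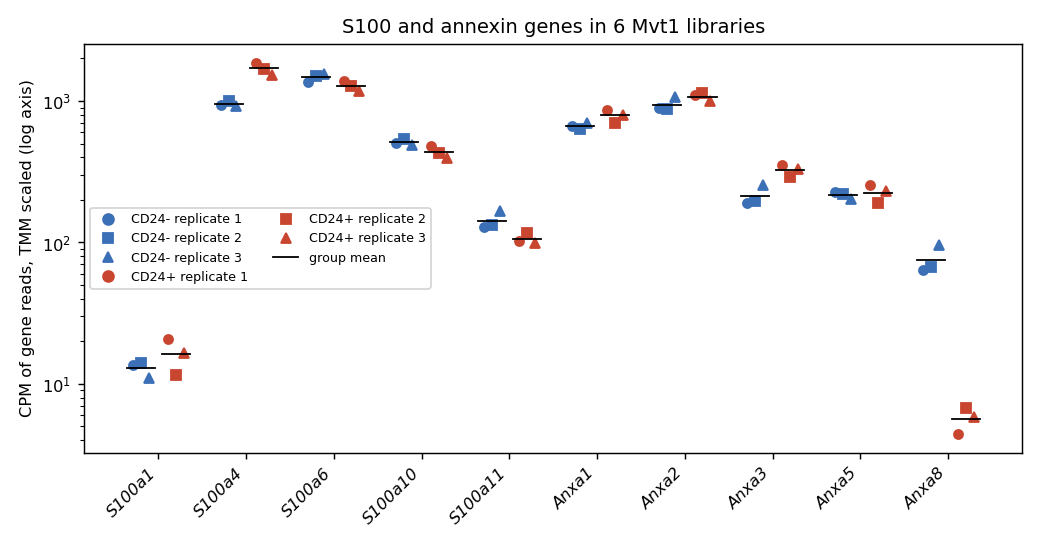
CPM (log axis) of the 10 members in each of the 3 CD24- (blue) and 3 CD24+ (red) libraries, with a line at each group mean. Anxa8 sits between 63.7 and 95.2 CPM in CD24- libraries and between 4.40 and 6.77 CPM in CD24+ libraries, S100a4 lies higher in every CD24+ library, and most other members differ little between the groups.

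S100a4, which binds non-muscle myosin IIA, is encoded on chromosome 3 of GRCm38 from 90603771 to 90606045 and was the member with the largest rise. It had 938, 997 and 920 CPM in CD24- replicates 1, 2 and 3 and 1871, 1692 and 1534 CPM in CD24+ replicates 1, 2 and 3. Every CD24+ library lay above every CD24- library. Mean levels were 952 ± 40.0 and 1699 ± 169 CPM (mean ± SD, n = 3 each). The log2 fold-change was therefore 0.84 (standard error, SE, 0.09) or 1.78-fold, with an adjusted p of 4.73e-05 from edgeR. The call was lost with each distinct sequence counted once per library (0.014) and with median coverage in place of summed reads (0.35), and with no library left out. Median coverage took only reads that match 1 GENCODE gene, and the part of this in the lost call was not tested. Summed reads of 1 GENCODE gene kept the call (0.88). Gm42674, an annotation that overlaps S100a4, cannot be told from it. By mean CPM S100a4 moved from place 66 to place 22 among the 11126 genes. The promoter of S100a4 is shown because this gene rose most, and it holds the letters of a TATA box (TATAAA, in capitals, searched on the gene's strand), which begin 31 bases before the start. The window runs from 250 bases before the RefSeq start to 50 after it, at chr3:90603520-90603819 of GRCm38.p6, plus strand.
S100a4: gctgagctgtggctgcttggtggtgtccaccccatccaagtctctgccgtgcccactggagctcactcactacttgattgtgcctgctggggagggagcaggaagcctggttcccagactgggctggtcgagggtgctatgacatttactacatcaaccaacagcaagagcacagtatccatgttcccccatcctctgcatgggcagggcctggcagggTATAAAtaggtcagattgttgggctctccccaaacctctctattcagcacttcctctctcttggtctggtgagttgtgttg

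S100a6, known as calcyclin, lies past S100a4 and S100a5 on the chromosome, from 90612882 to 90624181. It had 1359, 1506 and 1565 CPM in the CD24- libraries and 1397, 1269 and 1183 CPM in the CD24+ libraries, in the order of the replicates. The groups overlapped through CD24- replicate 1 and CD24+ replicate 1. The means of 1477 ± 106 and 1283 ± 108 CPM gave a log2 fold-change of -0.20 (SE 0.09, adjusted p = 0.10004). Without CD24+ replicate 1, the shallowest library, it was -0.28 with an adjusted p of 0.0333. With any other library left out, the adjusted p was between 0.101 and 0.253. S100a6 held place 24 in CD24- cells, and it was S100a4 that stood higher in CD24+ cells, where S100a6 held place 42.

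S100a10, the S100 subunit of the annexin A2 heterotetramer, had 506, 535 and 486 CPM in CD24- libraries and 485, 426 and 397 CPM in CD24+ libraries. The groups did not overlap, although CD24- replicate 3 and CD24+ replicate 1 nearly met. The log2 fold-change of -0.23 (SE 0.09) missed the threshold with an adjusted p of 0.0667, and it was -0.32 (adjusted p = 0.0113) without CD24+ replicate 1. With any other library left out, the adjusted p was between 0.0530 and 0.211. S100a1, best known from heart and skeletal muscle, was the least abundant S100 member. It had 13.7, 14.02 and 11.04 CPM in CD24- libraries and 20.6, 11.6 and 16.5 CPM in CD24+ libraries, with the groups overlapping through CD24+ replicate 2. Its change of 0.29 (SE 0.20, adjusted p = 0.267) was 0.49 (adjusted p = 0.0381) without that library, 0.11 (adjusted p = 0.664) without CD24+ replicate 1 and 0.18 (adjusted p = 0.511) without CD24- replicate 3.

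S100a11, also called calgizzarin, lies from 93520488 to 93526287 of chromosome 3 and fell. It had 128, 134 and 166 CPM in CD24- libraries and 102, 116 and 98.5 CPM in CD24+ libraries. No CD24+ library reached the lowest CD24- library. The means of 143 ± 20.8 and 105 ± 9.46 CPM differed by a log2 fold-change of -0.43 (SE 0.11, adjusted p = 0.00997), 1.35-fold lower. It missed the threshold with distinct sequences (-0.23) and with median coverage, which took only reads of 1 GENCODE gene (-0.43, adjusted p = 0.0526 from limma). The reads annotated to S100a11 are a small share of those that fit the gene. Over the 6 libraries 41711 reads matched the S100a11 transcript of GENCODE M21 exactly, and 8312 of them (19.9%) carried its annotation. Another 11001 (26.4%) were annotated to Uqcrh, a gene of respiratory complex III, and 22398 (53.7%) had no annotation. The former lay on chromosome 4. The share with the S100a11 annotation was between 19.5% and 20.4% in every library, so the loss was alike in both groups.

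Reads over exon junctions were mostly placed away from the gene. A transcript copied into the genome without introns holds the joined exons, and an exact match to the genome places a junction read there and not at the gene. Of the 41711 reads, 15722 (37.7%) cross a junction of S100a11, and only 276 of them were annotated to S100a11. The reads below were chosen among coding reads that do not match the annotation Gm7665. The first is the most abundant within an exon annotated to S100a11 (685 reads over the 6 libraries, chr3:93330016-93330062 of mm9). The second is the most abundant over a junction annotated to Uqcrh (846 reads, chr4:115740010-115740056 of mm9). Both are written along the transcript, where they span bases 319 to 365 and 213 to 259, and the capitals mark 3 bases on each side of the junction after base 215. The second also matches the pseudogene Gm12854.
S100a11 read: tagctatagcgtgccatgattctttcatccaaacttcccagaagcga
Uqcrh-annotated read: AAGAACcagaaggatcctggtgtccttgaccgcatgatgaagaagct

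When every read that matches the S100a11 transcript was counted, whatever its annotation, the mean level was 688 ± 97.5 CPM for CD24- against 510 ± 46.4 CPM for CD24+ (SD, n = 3 each). The 6 libraries then had 629, 634 and 800 CPM for CD24- and 510, 556 and 463 CPM for CD24+. The level rose with the reads gained, and the difference between the groups was the same, at -0.43 on the log2 scale (SE 0.11, edgeR adjusted p = 0.00992). Reads of the gene and of its copies cannot be told apart by an exact match. This count was chosen after seeing the data. Of the 33399 reads without the S100a11 annotation, leaving aside 1, 17952 lay within exons and 15446 over junctions, and 20116 were placed on chromosome 18, 11001 on chromosome 4 and 2281 on chromosome 3. The deposited count of Uqcrh carries the reverse of this, since 53.1% of its 20724 reads match S100a11. For 7 other members over 99% of the matching reads carried the member's name, and the shares were 77.0% for S100a1 and 86.5% for Anxa8. No 47-nt stretch is shared by a pair of members.

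**Figure D2:**
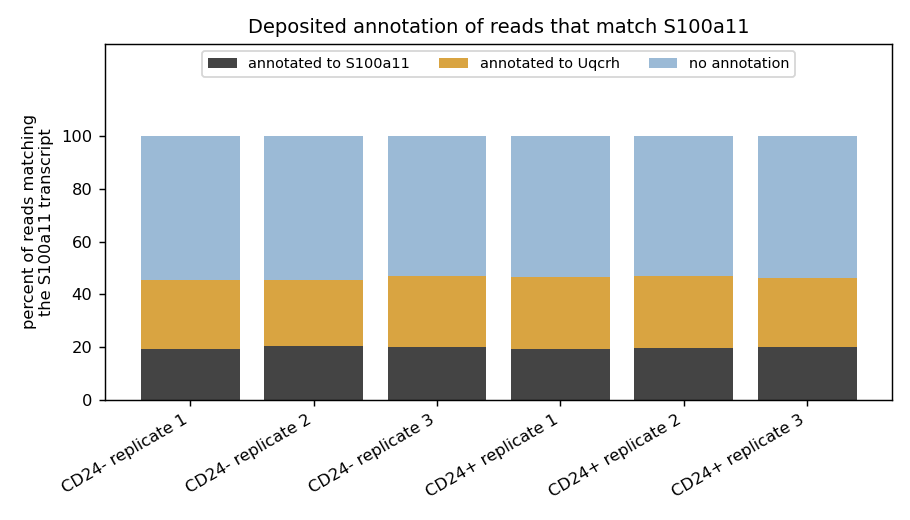
Percent of the reads matching the S100a11 transcript, in each of the 6 libraries, by the annotation they were deposited with (dark, S100a11; yellow, Uqcrh; blue, none). The dark part is between 19.5% and 20.4% in every library of both groups.

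The promoter of S100a11 (chr3:93520246-93520545 of GRCm38.p6, plus strand, the same window) is shown as that of the S100 member that fell. In capitals are the letters of the AP-1 motif (TGANTCA, present at 2 places), the GC box (GGGCGG, at 3) and the E-box (CACGTG, at 1), each searched on both strands.
S100a11: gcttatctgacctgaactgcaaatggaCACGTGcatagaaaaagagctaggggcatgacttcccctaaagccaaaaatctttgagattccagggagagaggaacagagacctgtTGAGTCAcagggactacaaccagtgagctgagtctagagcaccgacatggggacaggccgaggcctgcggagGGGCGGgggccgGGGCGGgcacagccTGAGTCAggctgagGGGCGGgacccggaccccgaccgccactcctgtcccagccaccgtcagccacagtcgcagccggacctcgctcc

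Anxa8 showed the largest change of the 10 members. The protein is a calcium-dependent binder of phospholipids and of actin filaments on late endosomes, and its gene lies on chromosome 14 from 34085981 to 34100571. It had 63.7, 67.4 and 95.2 CPM in CD24- libraries and 4.40, 6.77 and 5.87 CPM in CD24+ libraries. The lowest CD24- value was several times the highest CD24+ value. The reads behind them were 605, 711 and 845 in CD24- libraries and 28, 120 and 112 in CD24+ libraries. With means of 75.4 ± 17.3 and 5.68 ± 1.20 CPM the log2 fold-change was -3.67 (SE 0.19, adjusted p = 2.65e-07), or 12.7-fold lower, place 211 by size of change among the 11126 genes. In each of 18 alternative ways of processing, some of which repeat the values of the main fit, it fell past the threshold, with log2 fold-changes between -3.81 and -1.65. Its promoter (chr14:34085729-34086028 of GRCm38.p6, plus strand, the same window) is shown because this gene fell most; none of the motifs searched is present in it, so there are no capitals.
Anxa8: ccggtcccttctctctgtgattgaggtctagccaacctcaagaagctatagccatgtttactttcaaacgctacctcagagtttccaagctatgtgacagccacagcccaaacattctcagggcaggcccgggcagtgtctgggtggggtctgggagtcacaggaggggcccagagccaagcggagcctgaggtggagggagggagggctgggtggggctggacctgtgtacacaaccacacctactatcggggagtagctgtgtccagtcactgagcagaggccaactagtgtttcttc

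Of the 32851 mouse promoters of this length in the RefSeq table, 8.32% hold TATAAA, 7.81% TGANTCA, 35.7% GGGCGG and 7.15% CACGTG, and 14.7% hold CATTCC, the TEAD motif. Promoters of 8 of the 10 members were in the table, all but those of S100a10 and Anxa3. Among the 8, the TATA box was in 3 (S100a4, Anxa1 and Anxa2), the AP-1 motif in 2 (S100a11 and Anxa2), the GC box in 2 (the same genes), the E-box in 2 (S100a11 and S100a6) and the TEAD motif in 1 (Anxa1). The S100a4 and S100a11 promoters thus share none of these motifs. A match of letters does not show that a factor binds.

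Anxa3, an annexin known from neutrophils and from tumor cells, rose. It had 192, 196 and 256 CPM in CD24- libraries and 356, 292 and 328 CPM in CD24+ libraries. CD24- replicate 3 stood above its group and still under every CD24+ library. The means of 215 ± 36.2 and 325 ± 31.9 CPM gave a log2 fold-change of 0.60 (SE 0.12, adjusted p = 0.00260), 1.51-fold, and with distinct sequences it was 0.20 and missed the threshold.

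The remaining annexin members were abundant and did not pass the threshold on the adjusted p. Anxa1, whose protein is a glucocorticoid-induced brake on inflammation, had 665, 631 and 701 CPM in CD24- libraries and 871, 700 and 803 CPM in CD24+ libraries. CD24- replicate 3 and CD24+ replicate 2 met within 1 CPM, and the log2 fold-change was 0.25 (SE 0.10, adjusted p = 0.0547). The adjusted p was 0.0437 without CD24- replicate 3 (log2 fold-change 0.29) and 0.0146 without CD24+ replicate 2 (0.32). It was between 0.147 and 0.189 with any other library left out. Anxa2, which with S100A10 gathers plasminogen and its activator at the cell surface, had 890, 874 and 1065 CPM in CD24- libraries and 1096, 1131 and 996 CPM in CD24+ libraries. The groups overlapped and the change of 0.19 (SE 0.10) had an adjusted p of 0.143, which was 0.0261 (log2 fold-change 0.29) without CD24- replicate 3. With any other library left out, the adjusted p of Anxa2 was between 0.145 and 0.401. Anxa5, the protein used as a probe for phosphatidylserine on dying cells, held 216 ± 12.4 CPM for CD24- against 225 ± 32.8 for CD24+, and the change of 0.06 (SE 0.11, adjusted p = 0.677) was -0.046 without CD24+ replicate 1.

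Of the 5 luminal markers only the keratins Krt8, Krt18 and Krt19 could be tested, and these 3 were called lower in CD24+ cells. Over all genes tested 22.3% were called lower. The summed level of the 5 luminal markers was 1847 to 2040 CPM in CD24- libraries and 759 to 902 CPM in CD24+ libraries. The 5 fibroblast markers summed to 9.13 to 16.01 CPM in CD24- libraries and 64.8 to 97.8 CPM in CD24+ libraries. Most of the CD24+ sum was Pdgfrb, at 66.6 ± 14.7 CPM against 4.81 ± 1.24 in CD24- libraries. The Pdgfra groups overlapped, with CD24- replicate 2 at 8.43 CPM and CD24+ replicate 1 at 8.34 CPM. Col1a1, Col1a2 and Dcn passed the filter on low counts through the CD24+ libraries, so their direction was set by the filter. The 4 basal or myoepithelial markers summed to at most 13.99 CPM, with Krt5 and Krt14 at 1 and 3 reads. Acta2 alone could be tested. It passed the filter on low counts through the CD24+ libraries, so its direction was set by the filter and is given by reads alone. Acta2 had 1, 8 and 7 reads in CD24- libraries and 39, 97 and 237 in CD24+ libraries. Of the 5 leukocyte markers, as searched by name, only Cd68 had a level, 64.6 ± 18.4 CPM for CD24- and 8.15 ± 1.25 for CD24+, while Ptprc had 2 reads. Adgre1 and Cd3e had no read under these names, and older names were not searched for the markers. Endothelial markers summed to at most 2.56 CPM and the adipocyte markers to at most 0.23 CPM. The adipocyte marker Plin1 and the erythroid markers had no read under the names searched. The part of such cells in the changes of the members was not tested. In RNA of many cells, fewer cells of a type and less RNA per cell cannot be told apart.

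Levels were compared between members per length, as reads per 1000 mappable start positions of 1 transcript, scaled as the CPM are. In CD24- cells S100a6 was highest at 4470 ± 328, followed by S100a4 at 2435 ± 116, Anxa2 at 1041 ± 112 and S100a10 at 886 ± 46.4 (SD, n = 3 each). Next came S100a11 at 609 ± 83.3 and Anxa1 at 587 ± 17.3, whose values overlapped, then Anxa3 at 185 ± 23.7 and Anxa5 at 174 ± 11.1, which overlapped too, Anxa8 at 68.6 ± 15.1 and S100a1 at 32.6 ± 6.52. In CD24+ cells S100a4 at 4363 ± 458 and S100a6 at 3880 ± 333 were at the top, with S100a4 above S100a6 in each of the 3 libraries, although their ranges over the libraries overlapped. Below them were Anxa2 at 1195 ± 76.9, S100a10 at 752 ± 89.4 and Anxa1 at 717 ± 97.1, the last of which overlapped, and then S100a11 at 438 ± 36.3, Anxa3 at 292 ± 33.9, Anxa5 at 184 ± 28.0, S100a1 at 40.8 ± 11.3 and Anxa8 at 5.56 ± 1.24. Anxa8 thus moved from above S100a1 to the last place. Mappable start positions leave out those over an exon junction, for every member, and those shared with a transcript from elsewhere in the genome, which leaves 225 for S100a11. Over all 465 start positions of S100a11, the 92 over a junction included, and with every matching read counted, its level was 1479 ± 210 in CD24- cells and 1096 ± 99.7 in CD24+ cells. Those values may hold reads of the copies and count junctions, which the values of the other members do not, so they are given for S100a11 alone and not placed in the order.

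**Figure D3:**
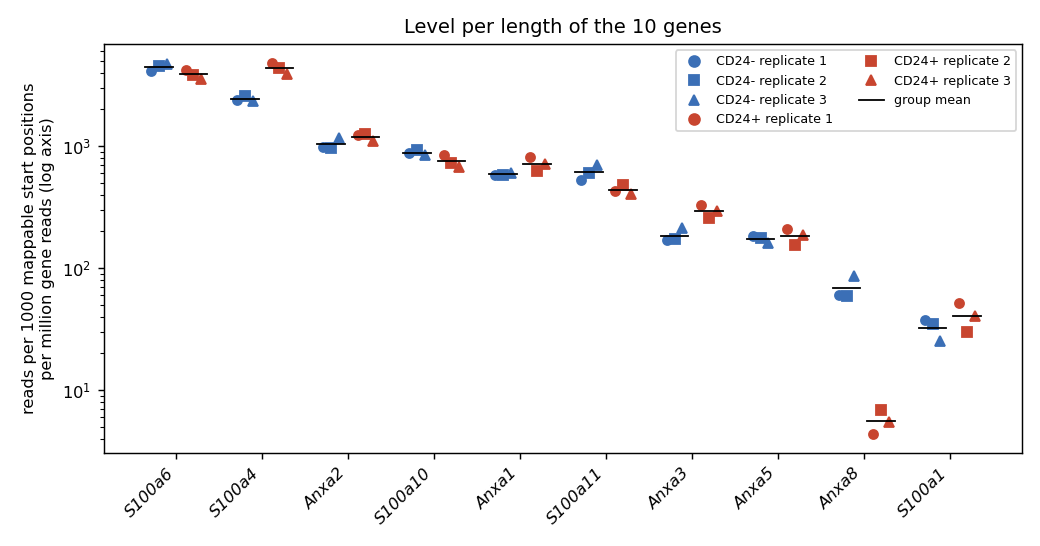
Level per length (log axis) of the 10 members, in reads per 1000 mappable start positions scaled as the CPM are, for each library, with a line at each group mean and the genes ordered by their mean over all libraries. S100a6 and S100a4 lead, and Anxa8 drops from 68.6 to 5.56 between the groups.

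Within-library ratios of the genes of known binding pairs do not depend on scaling. The log2 ratio of S100a10 to Anxa2 reads averaged -0.88 ± 0.22 for CD24- and -1.31 ± 0.12 for CD24+ (SD, n = 3 each), a difference of -0.42, and the groups did not overlap. The ratio of S100a11 to Anxa1 differed by -0.67, from -2.23 ± 0.15 to -2.91 ± 0.28, and that of S100a6 to Anxa11 by 0.33, from 2.57 ± 0.17 to 2.90 ± 0.11. Each of the 3 differences had a two-sided exact permutation p of 0.1, also after adjustment over the 3 ratios, and 0.1 is the smallest p that 3 libraries against 3 can give. The level of the S100a11 to Anxa1 ratio depends on the reads counted: with all matching reads it was 0.19 ± 0.16 for CD24- and -0.51 ± 0.29 for CD24+, and the difference was -0.71. When each distinct sequence was counted once per library, the S100a10 to Anxa2 ratio turned to a difference of 0.055, and the differences of S100a11 to Anxa1 and S100a6 to Anxa11 were -0.20 and 0.24, each with an exact permutation p of 0.2.

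Of a list of 19 other S100 and annexin genes, which leaves out S100a2, a gene without reads here, 15 had reads, 7 could be tested, and 5 passed, 1 higher and 4 lower in CD24+ cells, beside 46.1%, 23.9% and 22.3% of all genes tested. Their median log2 fold-change was -0.52, against 0.02 over all genes tested. The one that rose was Anxa6, an annexin with a doubled core that acts in cholesterol traffic and at the cell cortex, from 15.6, 15.5 and 10.5 CPM in CD24- libraries to 66.2, 54.1 and 78.2 CPM in CD24+ libraries. Its groups lay far apart, with a log2 fold-change of 2.25 (SE 0.18). The largest fall was that of S100a3, an S100 gene known from the hair cuticle, at -0.84 (SE 0.27, adjusted p = 0.0255). It rested on 346 reads in all, and CD24+ replicate 1 at 6.13 CPM nearly met the lowest CD24- library at 6.54 CPM. Anxa4, Anxa7 and Anxa11, widely expressed annexins, fell with log2 fold-changes of -0.74, -0.52 and -0.54, while Anxa9 (-0.21) and S100a13 (-0.10) did not pass. With the members, 10 annexins were tested, and 2 rose and 4 fell, against the same 23.9% and 22.3% of all genes. S100a9, the myeloid partner of S100a8, had no read and S100a8 39 reads. S100a16 had too few reads for the test, 1, 1 and 0 in CD24- libraries and 5, 23 and 21 in CD24+ libraries, and 28 of the 36 reads of S100a7a were in CD24- replicate 3.

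**Figure D4:**
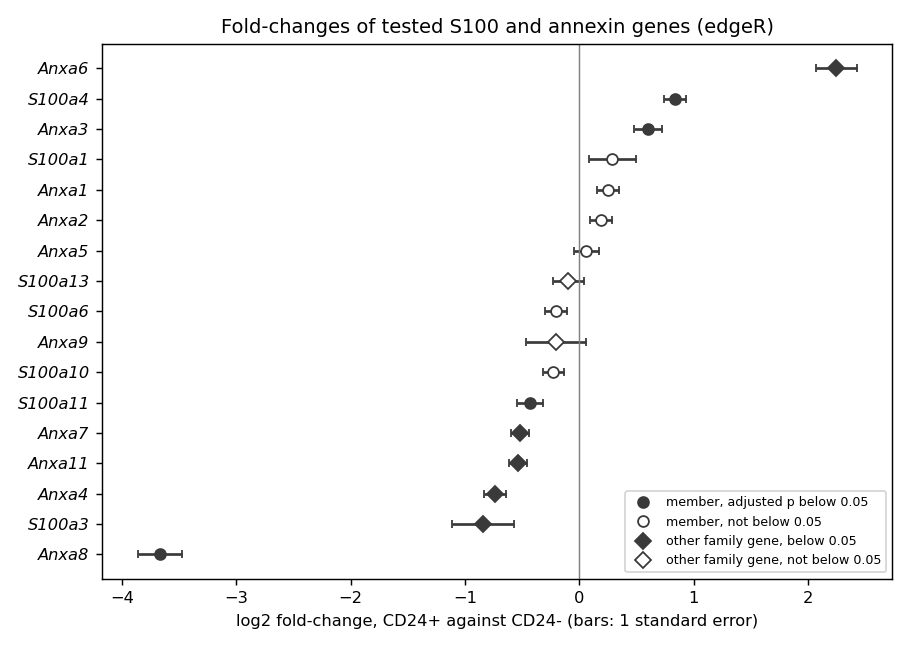
Log2 fold-change of CD24+ against CD24- cells for the 10 members (circles) and the 7 other tested S100 and annexin genes (diamonds), with bars of 1 standard error; filled symbols passed an adjusted p of 0.05. Anxa6 at 2.25 and Anxa8 at -3.67 stand at the ends, and the other genes lie between -0.84 and 0.84.

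Proteins that bind to, receive or act downstream of S100 proteins and annexins formed a list of 26 genes. Of these 23 had reads, 18 could be tested, and 7 passed, 2 higher and 5 lower in CD24+ cells, where 46.1% of all genes tested passed, 23.9% as higher and 22.3% as lower. Without CD24+ replicate 3, 4 passed. Pla2g4a rose most. It encodes the cytosolic phospholipase A2, the enzyme that annexin A1 is known to restrain, and its 2.53, 2.37 and 3.49 CPM in CD24- libraries stood against 28.6, 27.5 and 30.9 CPM in CD24+ libraries. No library of one group came near the other, and the log2 fold-change was 3.38 (SE 0.16). Dysf fell most, from 117 ± 8.69 to 41.0 ± 6.83 CPM (-1.52, SE 0.12). It encodes dysferlin, which works with annexins A1 and A2 in membrane repair. The catalytic subunits of both classical calpains fell as well, Capn1 by 0.64 and Capn2 by 1.26 on the log2 scale, as did Plaur (-0.56) and Cacybp (-0.34), and Myh9, the myosin heavy chain that S100A4 binds, was higher (0.36), with groups that overlapped, as CD24- replicate 3 at 1273 CPM was above CD24+ replicate 1 at 1264 CPM. Ahnak, a large scaffold of the S100A10 and annexin A2 complex, had 1957 CPM in CD24- replicate 3 and 1199 and 1100 CPM in the other CD24- libraries, and a log2 fold-change of 0.09 (SE 0.19). The receptors split by level, since Tlr4 had 129 ± 9.29 and 120 ± 13.8 CPM, Ager between 1.26 and 2.03 CPM, and the formyl peptide receptors Fpr1 and Fpr2 4 and 1 reads.

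In GENCODE M21, 14 S100 genes of chromosome 3 fall into a block of 12 from S100a1 to S100a9, over 185 kb, and a pair, S100a11 and S100a10, over 44.2 kb. Between the blocks lie 2825 kb with 60 protein-coding genes, most of which belong to the epidermal differentiation complex and build the cornified layer of skin. Of the 14 S100 genes 12 had reads and 7 were tested, 1 higher and 2 lower in CD24+ cells, a share near the 46.1% of all genes that passed. Of the 60 genes between them, 18 had reads, 750 in CD24- libraries out of 28689509 gene reads and 60 in CD24+ libraries out of 43358209. Only 4 of the 60 had enough reads for the test. They passed the filter on low counts through the CD24- libraries, so their direction was set by the filter and is given by reads alone. They are named after their values were seen. Lor, encoding loricrin, had 31, 29 and 43 reads in CD24- libraries and 0, 3 and 1 in CD24+ libraries. Sprr1a had 25, 31 and 25 against 0, 1 and 1 reads, Ivl, encoding involucrin, 11, 14 and 9 against 1, 0 and 1, and Prr9 109, 122 and 188 against 2, 9 and 3. Chtop, the gene just before S100a1, had reads in all libraries and a log2 fold-change of 0.04 (SE 0.08).

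**Figure D5:**
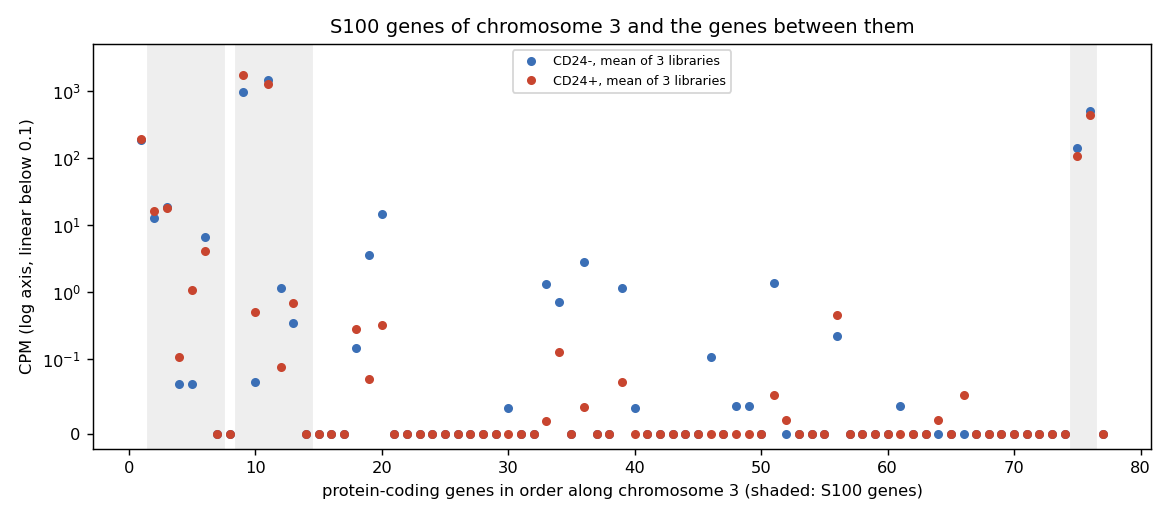
Mean CPM (log axis, linear below 0.1) of 77 protein-coding genes in their order along chromosome 3, from Chtop to Tdpoz2, in CD24- (blue) and CD24+ (red) cells, with the S100 genes shaded. S100a4 and S100a6 have the highest points, Chtop at the left edge is not an S100 gene and has 185 and 190 CPM, and between the shaded blocks Lor, Prr9, Sprr1a and Ivl have blue points above the red ones.

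The genes most like S100a4 and Anxa8 were sought by the root-mean-square distance between log2 CPM profiles over the 6 libraries, each centred on its mean. Nearest to S100a4 were 2310022M17Rik (distance 0.04), Meis3 (0.05) and Dtnbp1 (0.06), with log2 fold-changes of 0.86, 0.87 and 0.78. Nearest to Anxa8 were Peg3 (0.13), an imprinted gene, with a log2 fold-change of -3.70, Sprr1a (0.21) and Cmtm5 (0.21). The log2 CPM behind these distances hold edgeR's prior count, which shrinks the profile of a gene with almost no reads in a group, so the likeness of Sprr1a and Cmtm5 to Anxa8 depends on it, and no fold-change is given for them. Peg3 was also like it in level, at 77.5 CPM for CD24- and 5.75 for CD24+, whereas Sprr1a and Cmtm5 had under 3 CPM in both groups.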

How the data were processed

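Poly(A) RNA of Mvt1 cells was sequenced with an unstranded kit. The authors trimmed reads to 47 nt, collapsed identical ones, placed every sequence on the mouse genome by exact match (mm9 per the submitters' processing notes), and gave it 1 location and 1 annotation. They deposited, for each library, raw counts per sequence, not normalized and not pooled. An exact match leaves out most junction reads and reads over variants, and gene copies can take reads. The mapping tool is not given in the sources used here.

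Counts were summed per annotation. Markers, partner genes and the list of other S100 and annexin genes were sought by 1 symbol each, so reads under another name were not counted. Gene reads were 71.8% to 74.3% of a library, and reads of repeats, of small RNA or without annotation were left out. Genes passing filterByExpr were tested with edgeR 4.0.16 (TMM, quasi-likelihood F test, Benjamini-Hochberg, threshold 0.05) in R 4.3.3, without covariates, and standard errors are the size of the log2 fold-change divided by the square root of F. Adjusted p-values of the text are from this fit over all genes. Gene coordinates, transcripts and transcript matches are GENCODE M21 (GRCm38), promoters RefSeq (GRCm38.p6). For the level per length 1 basic protein-coding transcript per gene was used, at least 50% as long as the longest and with the most reads per mappable start. No library repeats another (chi-square over its degrees of freedom within a group, 1.75 for CD24- replicates 1 and 2 and 9.69 to 15.9 for the other pairs). The members, lists and the rule for named genes (each member, Cd24a, the largest rise and fall of each list, and the 3 nearest profiles) were chosen with earlier results of these data known. The edgeR step was tested on simulated data. Alternatives were DESeq2 1.42.0, other scalings and filters, distinct sequences, reads of 1 GENCODE gene and the replicate block. A minimum fold-change and leaving out each library were tried too. Another was an estimate after the study's steps (median coverage over 1 transcript, quantile normalization, a regularizer of 10), tested with limma 3.58.1. Its coverage took only reads that match 1 GENCODE gene.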

Additional observations from a re-analysis of the deposited data

Results flagged for a closer look

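Reads that match the S100a11 transcript but do not carry its annotation numbered 33399 over the 6 libraries. The comparison of S100a11 leaves them out, and 11001 of them are counted as Uqcrh. They lie outside the main measurement and are present in every library of both groups. Whether they come from S100a11 or from its copies was not established, since an exact match cannot tell these apart. Groups of 3 libraries are too small for a test of single outlying values.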

How the results depend on the processing

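Over 18 alternatives for each of the 10 members, 155 of 180 fold-changes kept their direction and side of the threshold, 8 lost the call, 11 gained one and 6 changed sign. A filter of at least 1 CPM in 3 libraries gave the values of the main fit again. The minimum fold-change reused those values, so it could lose a call but not gain one or change a sign. The fewest reads of a member in a library were 28 (Anxa8, CD24+ replicate 1), and those of S100a1 ranged from 98 to 315. Members called numbered 4 to 6 with a library left out, and 1 with each distinct sequence counted once, 2 with median coverage and 1 with a log2 fold-change of at least 1. The other S100 and annexin genes called numbered 8 without a filter on low counts (S100a5, S100a7a and S100a16 joined), 3 with median coverage, 1 with the minimum fold-change and 4 to 6 with a library left out. The partner genes called numbered 4 with distinct sequences, 3 with the minimum fold-change and 4 to 7 with a library left out, 4 of them without CD24+ replicate 3. All called genes numbered 3121 with median coverage, 1600 with the minimum fold-change and 4069 to 5357 with a library left out.

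Counting distinct sequences turned Anxa1 to -0.024, Anxa2 to -0.11, Anxa5 to -0.068 and the S100a10 to Anxa2 ratio to 0.055, and left S100a4 at 0.01 and Anxa3 at 0.20. S100a4 had 696 to 982 distinct sequences in libraries with 8168 to 29963 reads, and Anxa3 had 790 to 1574 for 1822 to 6264 reads. A short transcript allows few distinct sequences, and the part of this in these changes was not tested. Median coverage turned S100a6 to 0.057 and Anxa5 to -0.073 and left S100a4 at 0.35 (adjusted p = 0.201 from limma) and S100a11 at -0.43 (adjusted p = 0.0526); the cause was not tested. Anxa5 ranged from -0.046 to 0.16 with a library left out. S100a10 passed with DESeq2 (-0.24), without TMM (-0.25) and on reads of 1 GENCODE gene (-0.26). Anxa1 passed with all reads that match its transcript (0.29) and with every library thinned to the shallowest (0.29), both chosen after seeing the data.

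With the replicate number as a block 4 members, 5 other S100 and annexin genes, 7 partner genes and 4492 genes in all were called, and the sign-flip p of each ratio was 0.25, the smallest it can give. Same-numbered libraries deviated together with correlations of 0.014, -0.25 and -0.31, so the numbers were not taken as pairs.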
